A study of Mus musculus with 6 samples.

Results

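The microRNAs miR-500, miR-501, miR-362, miR-188 and miR-532 come from 5 hairpin genes that lie close together on the mouse X chromosome. Their assays were found by name, species prefix dropped, alone or with a strand ending. The rule gave 9 of the 584 microRNA assays on the 2 cards of the study, 8 on card A and 1 on card B. A threshold cycle (Ct) below 35 in 3 or more samples was asked of an assay to be tested, which 7 of the 9 met, among 306 assays tested in all. The samples were purified cell bodies of cortical projection neurons from mice at postnatal day 1, profiled with TaqMan Low Density Array rodent cards. Callosal projection neurons (CPN), whose axons cross to the other hemisphere, are the control group with 3 samples. Subcerebral projection neurons (SCPN), whose axons run to the brainstem and spinal cord, are the test group with 3 samples. The labels give the same age for both groups and name no strain, genotype, sex or number of animals, and how the neurons were marked and sorted is not given in the sources used here.

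A microRNA is cut from a hairpin precursor as a short RNA of the 5p or the 3p arm, and it pairs with messenger RNAs mainly through its seed, bases 2 to 8 from the 5′ end. All 5 hairpin genes fall inside the interval of Clcn5, the gene of an endosomal chloride and proton exchanger, on the same strand. MicroRNAs of such a cluster can share a transcript, after which processing and stability can set each mature strand apart. In neurons, miR-501-3p is known for lowering the glutamate receptor subunit GluA1 in dendrites, and miR-188-5p for targeting the guidance receptor neuropilin-2 at synapses.

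In RefSeq annotation of assembly GRCm38.p6 the hairpins span 10.8 kb, chrX:7237683-7248497 on the minus strand. In the direction of transcription the order is Mir532, Mir188, Mir362, Mir501 and Mir500. The mature sequences below are shown because members of the cluster fall into seed groups, which matters for reading their values. Capitals mark the seed, and all sequences are RefSeq mouse sequences from 5′ to 3′. The first 2 share a seed, the next 3 are 5p strands of which 2 share a seed, and the last 4 have seeds of their own within the cluster.
miR-501-3p: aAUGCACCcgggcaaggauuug
miR-500-3p: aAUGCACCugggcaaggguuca
miR-500-5p: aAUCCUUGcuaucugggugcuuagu
miR-362-5p: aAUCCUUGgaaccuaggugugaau
miR-501-5p: aAUCCUUUgucccugggugaaa
miR-188-5p: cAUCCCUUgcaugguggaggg
miR-188-3p: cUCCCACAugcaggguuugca
miR-362-3p: aACACACCuguucaaggauuca
miR-532-3p: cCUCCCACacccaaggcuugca

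Mature miR-500-3p and miR-501-3p had the same base at 18 of 22 positions and differed by U9C, G18A, C21U and A22G, with the base of miR-500-3p first and positions counted from the 5′ end. The assay named miR-500 carries no arm in its name, so which of the 2 miR-500 strands it reads is not settled by the files. MiR-501-3p lies at chrX:7241270-7241291, miR-188-5p at chrX:7248031-7248051 and miR-532-3p at chrX:7248419-7248440. Of the 9 assays, 6 matched a sequence by their full name. MiR-532-5p has 2 assays, a mouse-named and a rat-named one. No assay of miR-362-5p is on the cards.

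A lower Ct means more template. Levels below are cycles above the mean of the microRNA assays of the same card with a Ct under 35 in all 6 samples (159 on card A), and 1 cycle is a log2 unit at full PCR efficiency. Ct of different assays also depends on their primers, so levels were not ranked between microRNAs. Between 250 and 331 assays per sample had a Ct under 35, and the card A mean of the common assays ran from 21.8 cycles (SCPN replicate 1) and 22.6 (CPN replicate 1) up to 28.1 (CPN replicate 2). As a result the limit of Ct 35 stood at a level of -13.22 in SCPN replicate 1 and at -6.93 in CPN replicate 2. Of the neuron markers fixed for these samples, 12 of 14 assays were tested. The mean level of miR-9 was 8.30 in CPN and 8.01 in SCPN, and that of miR-124 was -0.88 and -1.25. On this list miR-218-1* was under 35 in 5 samples, miR-153 and miR-218-2* in 3, miR-129-5p in 1 and miR-124* in 0. The others were under 35 in all 6. Markers of other cells were in part measured. Of the 7 microglia and blood assays, miR-146a, miR-150, miR-155 and miR-223 had a Ct under 35 in all 6 samples, miR-142-3p in 4, and miR-142-5p and miR-150* in 0. Of the 4 oligodendrocyte assays, miR-338-3p was under 35 in 4 samples, the rat-named miR-219-1-3p in 3, miR-219 in 1 and the rat-named miR-219-2-3p in 0. The erythroid miR-451 was under 35 in 1 sample and miR-486 in 0. Of the 5 vascular assays, the endothelial miR-126-3p, miR-126-5p and miR-145 were under 35 in all 6 samples, miR-143 in 4 and miR-145* in 0. In such bulk samples fewer cells of a type and less RNA per cell cannot be told apart. No label ties the samples of a group to separate animals or litters, so p-values reflect sample spread alone and that spread may be technical.

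In the fit of all assays, 0 of 306 (0%) passed an adjusted p of 0.05 in limma, and so did 0 of the 7 tested cluster assays. An unadjusted p under 0.05 was found for 25 assays (8.17%), 5 lower in SCPN (1.63%) and 20 higher (6.54%). From the cluster, 1 of 7 was among them, miR-501-3p, lower in SCPN, and 0 were without CPN replicate 3, where its unadjusted limma p was 0.0534. The means of 6 cluster assays were lower and that of 1, miR-362-3p, was higher in SCPN, where 54.9% of all tested assays had a lower mean. The median log2 difference, SCPN minus CPN, was -0.18 over the 7 cluster assays and -0.08 over all tested assays. The cluster as a list thus lay near the bulk of the assays. The mean differences of its members varied in size and sign, and none passed the adjusted p.

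**Figure D1:**
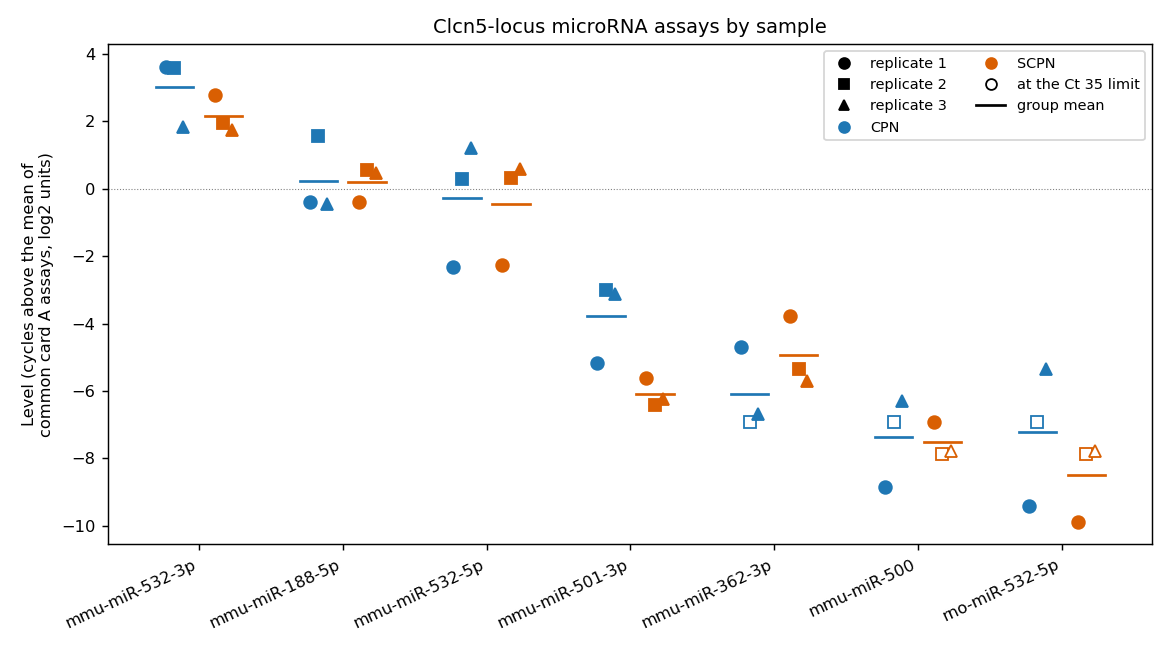
Level of the 7 tested cluster assays in each sample (vertical axis, cycles above the mean of the common card A assays, log2 units); symbols give the replicate number, colours the group, open symbols samples set to the Ct 35 limit, and bars the group means. For miR-501-3p the SCPN samples lie between -6.42 and -5.63, all below the CPN samples, which lie between -5.18 and -3.02.

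MiR-501-3p had the largest difference of the cluster on this scale and with this limit. On the authors' control scaling that of miR-362-3p was larger, at 2.40 against -1.08. With undetermined samples set to Ct 40 those of miR-500 (-2.99) and miR-362-3p (2.84) were larger than that of miR-501-3p (-2.30). The Ct of miR-501-3p was 27.8, 31.1 and 27.9 in CPN replicates 1 to 3 and 27.4, 33.6 and 33.5 in SCPN replicates 1 to 3. On the level scale this gave -5.18, -3.02 and -3.12 in CPN and -5.63, -6.42 and -6.23 in SCPN. All SCPN samples lay below all CPN samples, and between the groups CPN replicate 1 and SCPN replicate 1 were the closest. The groups failed to overlap in this direction in 19 of 306 assays (6.21%), 1 of them from the cluster, and in the opposite direction in 27 (8.82%), 0 of them from the cluster. CPN averaged -3.77 ± 1.22 and SCPN -6.09 ± 0.41 (SD, n = 3 per group). The log2 difference was thus -2.32 ± 0.75 (SE), which is 4.995-fold more in CPN. Its limma unadjusted p was 0.0157, the 12th smallest of 306 by rank, and its adjusted p was 0.40, so the difference did not pass. By size it was the 5th lowest of the 306 differences.

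The same-numbered samples differed by -0.45, -3.40 and -3.11 for miR-501-3p, so the replicate 1 pair showed little of the difference. Without both samples numbered 1, an alternative added after seeing the data, the difference was -3.26 with an unadjusted p of 0.00100 and a limma adjusted p of 0.24. On the authors' control scaling it was -1.08 (limma adjusted p 0.92) and the groups overlapped. With the limit at Ct 32 it was -1.26 (limma adjusted p 0.72). That limit replaced the Ct of SCPN replicates 2 and 3, 33.6 and 33.5, so their levels could not fall lower. The authors' deposited table gives miR-501-3p a ratio of 0.474, SCPN over CPN, where the median of all ratios in that table is 1.65 and 78.9% of them are above 1.

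Markers of other cells were set beside this value. The proliferating progenitor list, on which miR-92a differs by -2.02, had a lower SCPN mean in 6 of 8 tested assays and no overlap in 4 of them. Over the 306 assays these shares were 54.9% and 6.21%. The summed level of the list was 7.34 to 8.30 in CPN samples and 6.70 to 7.10 in SCPN samples. The other 4 assays of that list had a Ct under 35 in 0 samples. The 2 tested oligodendrocyte assays of 4 were lower as well, with summed levels of -6.84 to -5.35 in CPN and -8.12 to -6.13 in SCPN. They were under 35 in only 4 and 3 samples, so these values rest partly on the limit. That limit stood at -6.93 in CPN replicate 2 and at -7.86 and -7.77 in SCPN replicates 2 and 3. All 3 tested astrocyte assays of 7 were lower, with summed levels of -1.52 to -0.04 in CPN and -1.21 to -0.47 in SCPN. Of these, miR-29a and miR-449a were under 35 in all 6 samples and miR-21 in 4, so miR-21 rests partly on the limit. The untested miR-21* and miR-29a* were under 35 in 1 sample each, and miR-23a and the rat-named miR-23a* in 0. The 5 tested microglia and blood assays of 7 were higher in 4 cases, with summed levels of 1.404 to 2.01 in CPN and 0.78 to 2.81 in SCPN, and the 4 tested vascular assays of 5 were higher in 3 cases, with summed levels of 1.69 to 2.47 in CPN and 2.23 to 4.53 in SCPN. Their part in the value of miR-501-3p was not tested.

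The other strand of the same hairpin was close to undetected. MiR-501-5p, the card B assay with 2 wells, gave a Ct in 1 well of 1 sample, 32.6 in CPN replicate 3, and was undetermined in the other 5 samples. The paralogous miR-500 assay had a Ct of 31.4, 36.5 and 31.0 in CPN and of 28.7 in SCPN replicate 1, with SCPN replicates 2 and 3 undetermined. It was thus under the limit in 2 of 3 CPN samples and 1 of 3 SCPN samples. With values at the limit included its log2 difference was -0.16 ± 0.79 (SE, limma adjusted p 0.97), and it was -2.99 with undetermined samples set to Ct 40. In the 3 samples where both assays were under the limit, miR-500 came later than miR-501-3p by 3.67 cycles in CPN replicate 1, 3.18 in CPN replicate 3 and 1.30 in SCPN replicate 1.

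MiR-188-5p, the other cluster microRNA with a known synaptic target, was measured in every sample. The CPN samples had a Ct of 22.99, 26.5 and 25.2 and the SCPN samples one of 22.2, 26.6 and 26.8, and its levels were -0.39, 1.57 and -0.44 in CPN and -0.40, 0.57 and 0.46 in SCPN. All SCPN samples fell within the CPN range. CPN averaged 0.24 ± 1.15 and SCPN 0.21 ± 0.53 (SD, n = 3 per group), and their log2 difference was -0.03 with a 95% interval of -1.76 to 1.69 (limma adjusted p 0.99). On the authors' control scaling the sign turned, to 1.21, and the authors' deposited table gives a ratio of 2.31. The 3p strand, miR-188-3p, was undetermined in all 6 samples.

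MiR-501-3p was then set against its neighbours within each sample, since both assays of a pair are on card A and their Ct difference needs no scaling. MiR-501-3p came later than miR-188-5p by 4.78, 4.58 and 2.68 cycles in CPN and by 5.23, 6.99 and 6.69 cycles in SCPN. Every SCPN sample had a larger gap than every CPN sample. The gap averaged 4.01 ± 1.16 cycles for CPN and 6.30 ± 0.94 for SCPN (SD, n = 3 per group), a difference of 2.29 cycles with an exact two-sided permutation p of 0.1, the smallest that 3 against 3 samples allow, and 0.40 after adjustment over the 4 pairs compared. Against miR-532-5p the gap grew by 2.14 cycles (exact permutation p 0.2) and against miR-532-3p by 1.47 cycles (exact permutation p 0.4), with overlapping groups in both. Between same-numbered samples the gap grew by 0.44, 2.40 and 4.01 cycles against miR-188-5p and by 0.52, 3.43 and 2.49 cycles against miR-532-5p, in 3 of 3 pairs each. Against miR-532-3p it changed by -0.39, 1.77 and 3.02 cycles. The exact paired permutation p, from a test added after seeing the data, was 0.25 against miR-188-5p and against miR-532-5p, the smallest that 3 pairs allow, and 0.5 against miR-532-3p. The change against miR-532-5p was 3.28 without SCPN replicate 1, and that against miR-532-3p went to 0.55 when CPN replicate 3 was left out and to 2.48 when CPN replicate 1 was. Neither permutation test can reach 0.05 with 3 samples per group.

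**Figure D2:**
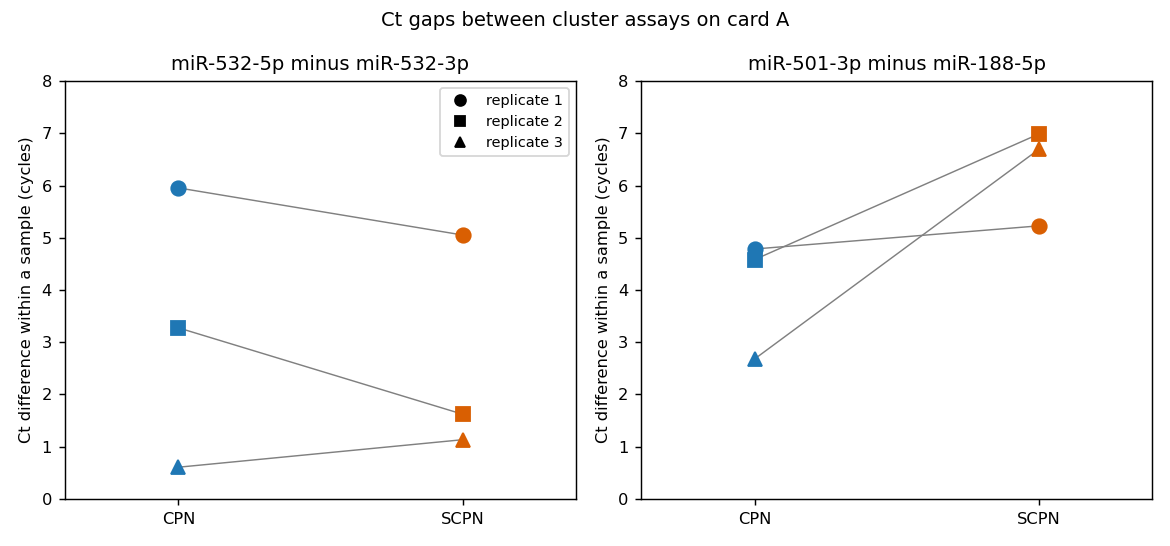
Ct of 1 cluster assay minus that of another in the same sample (vertical axes, cycles), for the strands of miR-532 on the left and for miR-501-3p and miR-188-5p on the right; lines join same-numbered samples. On the left the samples numbered 1 are highest in both groups, at 5.95 and 5.05 cycles, and on the right the SCPN samples, from 5.23 to 6.99, all lie above the CPN samples.

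MiR-532 was measured on both arms. The 3p assay had a Ct of 18.97, 24.5 and 22.9 in CPN and of 18.99, 25.2 and 25.5 in SCPN. Its levels were 3.63, 3.58 and 1.83 in CPN and 2.79, 1.95 and 1.74 in SCPN, so CPN replicate 3 lay among the SCPN samples. CPN averaged 3.01 ± 1.02 and SCPN 2.16 ± 0.56 (SD, n = 3 per group), and their log2 difference was -0.85 ± 0.71 (SE, limma adjusted p 0.81). It was lower in all 3 same-numbered pairs, as were 23.5% of all tested assays, and the difference went to -1.44 when CPN replicate 3 was left out and to -0.55 when CPN replicate 1 was. On the authors' control scaling it was 0.39, and the authors' deposited table gives a ratio of 1.31.

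The mouse-named 5p assay had a Ct of 24.9, 27.8 and 23.5 in CPN and of 24.0, 26.8 and 26.6 in SCPN. Its levels were -2.33, 0.30 and 1.22 in CPN and -2.26, 0.33 and 0.60 in SCPN, which set the 2 samples numbered 1 apart in both groups and left the groups overlapping. The log2 difference was -0.18 ± 1.15 (SE), with a 95% interval of -2.86 to 2.50 (limma adjusted p 0.99). It turned sign on the authors' control scaling, to 1.07, and the authors' deposited table gives a ratio of 2.09. The gap between the 5p and the 3p assay was 5.95, 3.28 and 0.61 cycles in CPN and 5.05, 1.62 and 1.13 cycles in SCPN. The widest 2 gaps were those of the samples numbered 1 and the narrowest 2 those of the samples numbered 3, while the group means of 3.28 and 2.60 cycles differed by an exact permutation p of 0.8. Over the 6 samples the levels of the 2 arms had a Pearson r of -0.63, a description only, since all points share their card's scale. Samples numbered 1 also gave the lowest 2 levels in 39 of the 224 assays measured in every sample (17.4%), and the highest 2 in 47 (21%), so miR-532-5p is not alone in this.

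The rat-named assay for miR-532-5p gave a Ct of 32.01, 35.9 and 30.1 in CPN and of 31.7, 36.1 and 36.1 in SCPN. It was under the limit in 2 CPN samples and 1 SCPN sample. It came later than the mouse-named assay by 6.57 to 8.09 cycles in CPN and by 7.62 to 9.48 cycles in SCPN. In both assays the samples numbered 1 were the lowest on the level scale, at -9.41 and -9.88 for the rat-named one. For it, CPN replicate 2 and SCPN replicates 2 and 3 sat at the limit, -6.93, -7.86 and -7.77, and could not fall lower. Its log2 difference was -1.28 ± 1.12 (SE, limma adjusted p 0.81), with 3 samples at the limit, which leaves that value without a direction of bound. The authors' deposited table, which uses Ct beyond 35 too, gives a ratio of 0.717.

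MiR-362-3p was the one tested assay of the cluster with a higher mean in SCPN. Its Ct was 27.3 and 31.4 in CPN replicates 1 and 3, undetermined in CPN replicate 2, and 25.6, 32.5 and 32.9 in SCPN. The levels were -4.71, at most -6.93, and -6.68 in CPN, and -3.77, -5.36 and -5.71 in SCPN. CPN replicate 1 lay above SCPN replicates 2 and 3, so the groups overlapped. The log2 difference of 1.16 ± 0.84 (SE, limma adjusted p 0.79) is a lower bound for these samples, since CPN replicate 2 stood at the limit. It was higher in SCPN in all 3 same-numbered pairs, by 0.94, at least 1.57 and 0.97. With the replicate number as a block, 51 of 306 assays and 2 of 7 cluster assays, miR-501-3p and miR-362-3p, had an unadjusted p under 0.05, and that of miR-362-3p was 0.0349 (limma adjusted p 0.27). The value fell to 0.69 without CPN replicate 2 and to 0.57 without SCPN replicate 1, was 1.85 without CPN replicate 1, and was 2.40 on the authors' control scaling.

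MiR-362-3p has the same seed as miR-329-3p, a microRNA of the imprinted cluster on chromosome 12, shown here to compare the seeds.
miR-329-3p: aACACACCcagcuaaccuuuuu
The miR-329 assay, whose name gives no arm, had a Ct of 27.1 and 31.6 in CPN replicates 1 and 3 and of 25.5 and 34.1 in SCPN replicates 1 and 3, and was undetermined in both samples numbered 2. Its log2 difference was -0.05 ± 1.21 (SE, limma adjusted p 0.99). The samples numbered 2 entered it at the limit, at a level of -6.93 in CPN and -7.86 in SCPN. This leaves the value without a direction of bound. By RefSeq mature sequence, no other assay named on the cards and outside the cluster matched a seed among the cluster sequences shown. Seeds were compared for those sequences alone, and miR-532-5p was not searched.

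**Figure D3:**
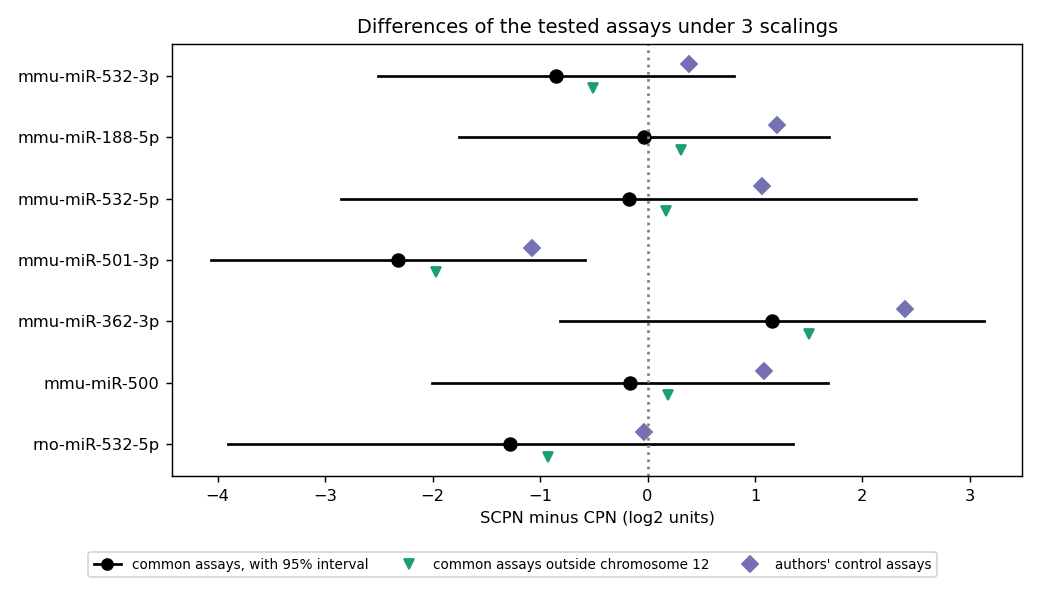
Difference SCPN minus CPN (horizontal axis, log2 units) of the 7 tested assays on 3 scales; black points with bars are values on the mean of the common assays with 95% intervals, triangles use common assays outside chromosome 12, and diamonds use the authors' control assays. The miR-501-3p values, -2.32, -1.97 and -1.08, are all below 0, and those of miR-362-3p are all above 0.

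The choice of scale moved every cluster assay on card A by the same amount. The common microRNAs stood 9.15 ± 1.33 cycles after the authors' controls in CPN and 7.91 ± 0.10 in SCPN (SD, n = 3 per group), so scaling on the controls adds 1.24 to every card A difference. The median over all tested assays then went from -0.08 to 0.87 and that of the cluster from -0.18 to 1.07. Relative to the median of all assays the cluster median was -0.10 on the common assays and 0.19 on the controls. Of the 7 cluster assays, 2 had a lower mean in SCPN on the authors' controls, miR-501-3p and the rat-named miR-532-5p, and 3 did on the common assays outside chromosome 12. MiR-501-3p kept the lowest difference of the cluster on these scales.

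**Figure D4:**
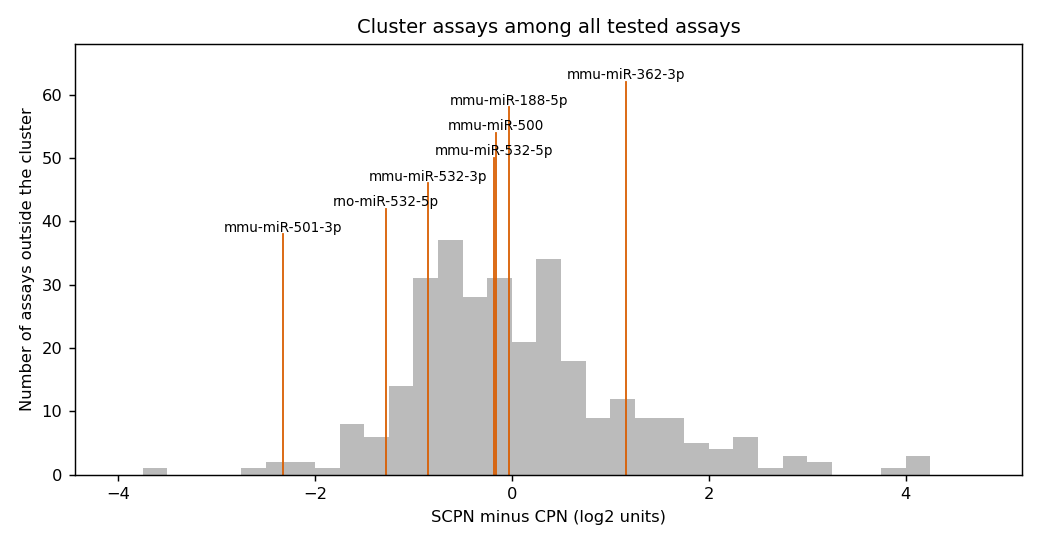
Histogram of the SCPN minus CPN differences (horizontal axis, log2 units) of the tested assays outside the cluster, with a vertical line for each of the 7 cluster assays, whose heights carry no value. The line of miR-501-3p, at -2.32, stands in the lower tail and the other 6 lie between -1.28 and 1.16.

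Other microRNAs linked to synapses were taken as a fixed list of 25 assays, of which 22 were tested. Of these, 11 had a higher and 11 a lower mean in SCPN, with a median of 0.26 against -0.08 for all tested assays, and 0 passed the limma adjusted p. With an unadjusted p under 0.05 there was 1, miR-485, known for targeting a synaptic vesicle protein, higher by 4.21 ± 1.26 (SE). It was under 35 in 1 CPN sample and 3 SCPN samples, so that value rests partly on the limit. The other strand, miR-485*, was under 35 in all 6 samples and higher by 0.91. MiR-138, which limits dendritic spine size, differed by 1.02, miR-134, known for its control of spine growth, by 1.24, and miR-132, induced by neuronal activity, by -0.25. Among those with a lower mean in SCPN were miR-125b-5p (-1.11) and miR-125a-5p (-0.91), members of a family that includes lin-4 of worms. From the other arm, miR-125a-3p (-0.96) and miR-125b-3p (-0.69) were lower, and miR-125b* (0.73) and its rat-named assay (0.54) were higher. Without overlap between the groups there were 5 of the 22, each with the SCPN samples on top, where 8.82% of the 306 assays were of that kind. Of the X chromosome assays outside the cluster, 27 of 70 were tested, with 17 lower, 10 higher and a median of -0.58. At an unadjusted p under 0.05, against 8.17% of all tested assays, there was 1, miR-652, lower by 2.36 ± 0.99 (SE, mean -2.91 in CPN and -5.27 in SCPN), and the groups failed to overlap in 3, all lower, miR-503*, miR-676 and miR-106a, against 6.21% of all tested assays in that direction. No assay of miR-502 or miR-660, named with this locus in other mammals, is on the cards.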

How the data were processed

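MicroRNA from 3 CPN and 3 SCPN samples was isolated with the miRVana kit, per the labels' protocols. The authors deposited raw Ct per well, Ct minus the geometric mean of control Ct per sample and card, and a table of ratios (fold, SCPN over CPN). How thresholds were set, and whether cDNA was preamplified, is not given in the sources used here.

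Raw Ct was used. Repeat wells were averaged where they had a Ct, an assay mean of 35 or more or with no Ct was set to 35, and the mean of the common assays was subtracted per sample and card, with the sign turned. Assays under 35 in at least 3 samples entered 1 linear model in limma 3.58.1 (lmFit, eBayes; R 4.3.3), whose two-sided p were adjusted by Benjamini-Hochberg over all 306 and read at 0.05. Pairs of assays were compared with exact permutation tests. No read depth exists, so precision rests on 3 samples per group and on the Ct limit.

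Deviations of same-numbered samples had correlations of 0.55, 0.29 and 0.30 over the tested assays, which met the rule for pairing. Between differently numbered samples they ran from -0.51 to 0.32. The highest of these, CPN replicate 2 with SCPN replicate 3, was above the same-numbered values of numbers 2 and 3. A fit with the number as a block was an alternative. Further alternatives changed scaling, limit, filter, well averaging, moderation, weights and samples. Named are all cluster assays, assays sharing a seed, fixed lists and the assays most correlated with the cluster. The members and lists were chosen with earlier results of these data known. Sequences, gene order and chromosomes come from RefSeq tables of GRCm38.p6, to which 493 assays matched 1 gene, 51 several and 40 none.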

Additional observations from a re-analysis of the deposited data

How the results depend on the processing

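With 3 samples per group and several assays near Ct 35, intervals are wide, such as -1.76 to 1.69 for miR-188-5p, and miR-500, the rat-named miR-532-5p and miR-362-3p rest partly on the limit. The count of cluster assays past adjusted p 0.05 was 0 in all alternatives run, and that of all assays was 0 except for 1 with sample weights. The replicate block changed none of these calls. MiR-501-3p stayed lower in SCPN in all 19 alternatives, from -3.26 to -0.997, with limma adjusted p of 0.11 to 0.97, and from -3.02 to -1.99 when 1 sample was left out. Its value of -2.32 could not move in those that changed only the block, moderation, filter or well averaging.

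Most other signs changed with some scalings. Those of miR-188-5p, miR-500 and miR-532-5p also turned in alternatives that did not change the scaling rule. On the authors' controls the cluster median was 1.07, miR-188-5p 1.21, miR-500 1.08, miR-532-3p 0.39 and miR-532-5p 1.07. On controls without U6, chosen after seeing the data, the cluster median was 1.15, the median of all assays 1.07, miR-188-5p 1.29, miR-500 1.16, miR-532-3p 0.47, miR-532-5p 1.15 and its rat-named assay 0.047. With common assays outside chromosome 12, miR-188-5p was 0.32, miR-500 0.19 and miR-532-5p 0.17. With the limit at Ct 32, miR-188-5p was 0.017 and miR-500 0.89, and with sample weights miR-188-5p was 0.45. Leaving out 1 sample, values ran from -0.38 to 0.57 for miR-188-5p, from -1.21 to 0.73 for miR-532-5p and from -1.44 to -0.55 for miR-532-3p. The gap between the strands of miR-532 then differed by -2.01 to 0.66 cycles. For miR-500 only 3 such fits exist, each without a sample set to the limit, with values from -0.038 to 0.019. When a sample with miR-500 under the limit was left out, that assay was no longer tested. The shifts with scaling follow from its construction, and the cause of the others was not tested.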

Other observations

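Among the 220 assays outside the cluster that were measured in every sample, the level of miR-383, a brain-enriched microRNA, followed the per-sample median of the 4 always measured cluster assays most closely, with a Pearson r of 0.97 over 6 samples. It was followed by miR-342-3p (0.97), miR-709 (0.96), the rat-named miR-345-3p (0.95) and miR-678 (0.95). Their own differences between the neuron classes ran from -0.54 to 0.44 log2 units. Closest to miR-501-3p were miR-99a (0.96), miR-503* (0.96), which is also on the X chromosome, miR-128 (0.95), miR-342-5p (0.95) and miR-350 (0.91), with differences from -1.45 to -0.55. These values describe the 6 samples. The card A assays share the scale of the cluster assays, while miR-709, miR-678 and miR-503* are on card B and were scaled there.

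Among the 4 always measured cluster assays themselves, Pearson r over the 6 samples was 0.33 for miR-501-3p with miR-532-3p, 0.32 for miR-501-3p with miR-532-5p, 0.19 for miR-501-3p with miR-188-5p, 0.18 for miR-188-5p with miR-532-3p, 0.44 for miR-188-5p with miR-532-5p and -0.63 for miR-532-3p with miR-532-5p. These pairs were not selected, whereas the assays above were those with the highest r of 220, so the values were not compared.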
